A study of Mus musculus with 8 samples.

Results

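The genes described here are 10 genes of the Wnt pathway in cardiac fibroblasts. They are the ligand Wnt5a, the secreted antagonists Sfrp1, Sfrp2, Frzb, Sfrp4, Wif1, Dkk2 and Dkk3, the feedback inhibitor Axin2, and the nuclear factor Lef1. They were taken by symbol from the 18957 genes in the count tables, where 10 of 10 were listed, and 9 of the 10 were among the 13036 genes with enough counts to be tested (Dkk2 was not). The study asked what deletion of Lmna, the gene for lamins A and C of the nuclear envelope, does to fibroblasts of the mouse heart. RNA was sequenced from ventricular cells sorted by flow cytometry for the surface receptor PDGFRA, in 4 WT libraries and 4 libraries from Pdgfra-Cre:LmnaF/F mice, all on the strain labelled C57BL/6 (mixed). The mice were 3 to 4 weeks old according to the methods of the study. Cells carrying hematopoietic lineage markers were gated out.

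In the Pdgfra-Cre:LmnaF/F mice both Lmna alleles carried a floxed exon 2, and a BAC transgene drove Cre from Pdgfra regulatory sequence. PDGFRA marks most but not every cardiac fibroblast, and this Cre is also active in some myocytes. The WT littermates carried no Cre, so Cre itself and the loss of Lmna cannot be told apart. The labels give each library a number and do not say that each came from a separate animal, so the p-values measure the spread between these libraries.

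Wnt ligands are secreted proteins that bind Frizzled receptors and the coreceptors Lrp5 and Lrp6. In the canonical branch this stops the destruction complex, in which Axin2 is a scaffold, from degrading beta-catenin, which then joins Lef1 or a related TCF factor on its target genes. Sfrp proteins, Frzb and Wif1 bind the ligands outside the cell, while Dkk proteins such as Dkk2 act at the coreceptors. Dkk3 is the divergent member of that family, and action at the coreceptors is not taken as given for it. No effect of Dkk3 on Wnt signalling was measured here. In the heart the pathway is known for its part in development and in the response of fibroblasts to injury.

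Total counts lay between 2080555 (WT replicate 2) and 12502949 per library. Lmna stood at 331, 274, 483 and 374 CPM (counts scaled to library size with TMM factors) in WT replicates 1 to 4 and at 126, 97.4, 130 and 90.4 in the Pdgfra-Cre:LmnaF/F replicates. Its log2 fold change, here always Pdgfra-Cre:LmnaF/F minus WT, was -1.72 ± 0.22 (SE; adjusted p = 0.00492, quasi-likelihood test of edgeR with Benjamini-Hochberg adjustment over all tested genes). The deposited counts are per gene and do not separate exon 2. All 8 fibroblast markers (Pdgfra, Col1a1, Col1a2, Col3a1, Dcn, Lum, Tcf21 and Ddr2) were tested, and their summed level was 49844 ± 3501 CPM in WT and 46945 ± 7116 CPM in Pdgfra-Cre:LmnaF/F libraries (SD, n = 4 each).

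Dkk3 and Frzb were the 2 genes of the 9 tested whose libraries did not overlap between the genotypes, both being higher in every Pdgfra-Cre:LmnaF/F library. Across all tested genes, 8.03% had groups that did not overlap, and 4.06% did so in the higher direction. None of the 9 had an adjusted p under 0.05 in the edgeR test, against 0.407% of all tested genes. At an unadjusted p under 0.05 it was 1 of 9, Dkk3, against 11.9% of all tested genes (6.24% higher and 5.65% lower). DESeq2, run as an alternative on the same counts, called 1 of the 9, again Dkk3, against 2.32% of all tested genes (it gave no adjusted p for Sfrp4, Wif1 and Lef1), and limma-voom called 0, against 0.967%. Dkk3 was also the 1 gene called by edgeR with no filter, against 1.45%, and by DESeq2 with 1 RUVr factor, a term for unwanted variation estimated from residuals, against 3.47%. In these sorted cells a different level of an RNA per cell and a different share of the cells that make it cannot be told apart, in either direction.

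**Figure D1:**
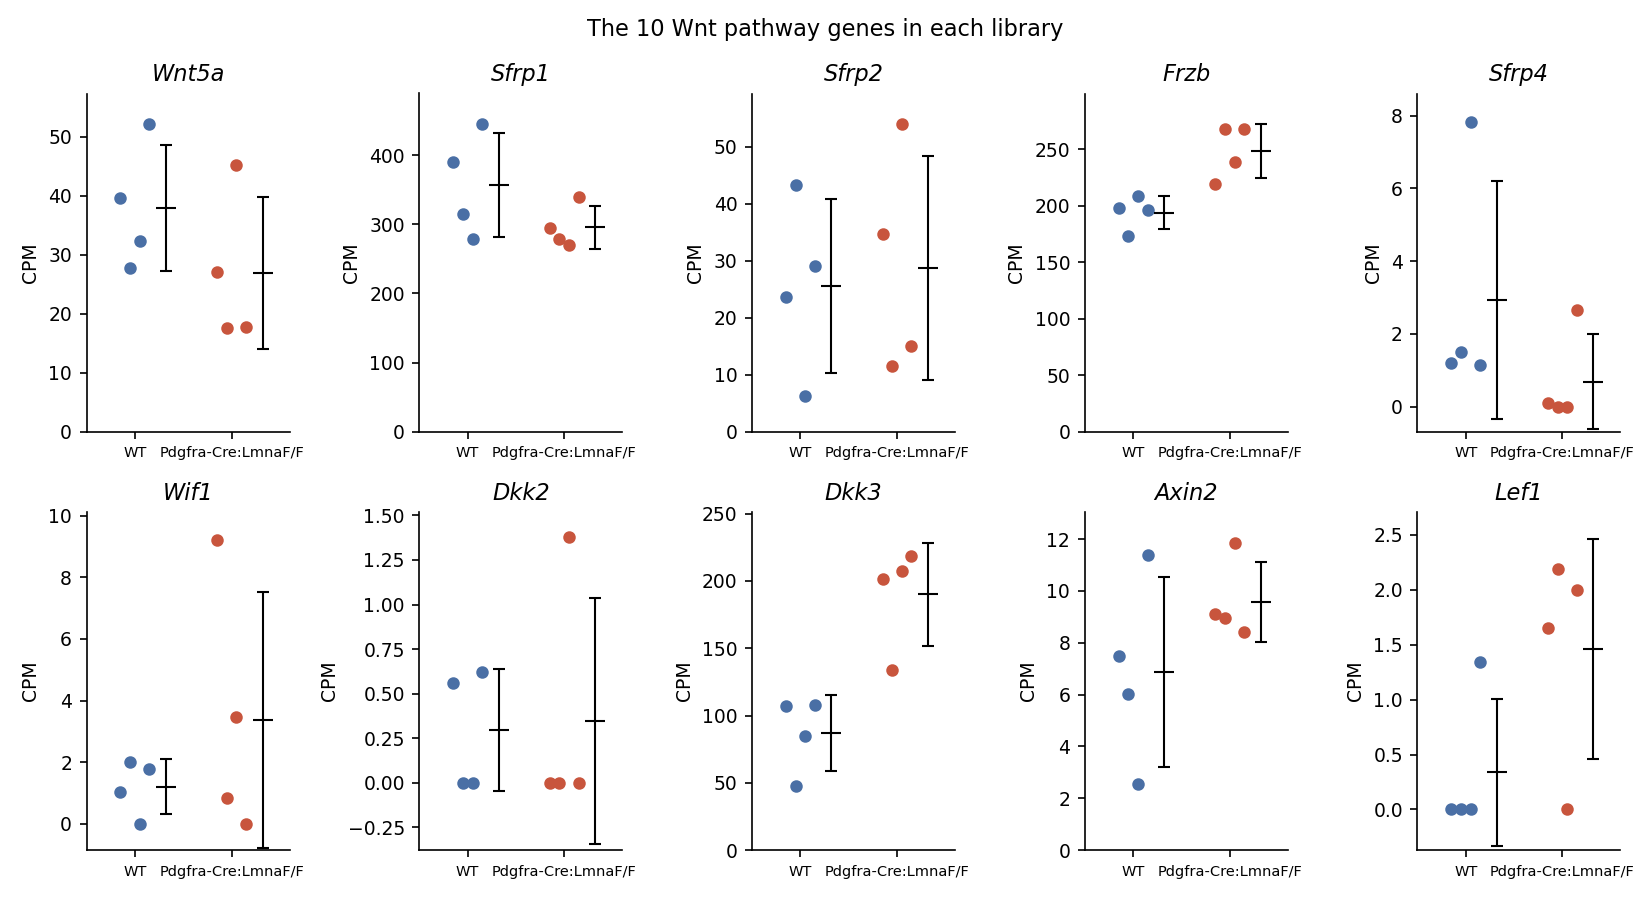
Each panel plots 1 gene, with CPM on a linear axis, 1 point per library for 4 WT (blue) and 4 Pdgfra-Cre:LmnaF/F (red) libraries, and a black bar for the mean ± SD. Dkk3 and Frzb are the panels in which every red point lies above every blue point, and Sfrp4, Wif1, Dkk2 and Lef1 each have libraries at 0.

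Dkk3 (ENSMUSG00000030772.6, chromosome 7, 112116017 to 112159057, minus strand, mm10) had the lowest p of the 10 genes. In WT libraries 1 to 4 its level was 107, 47.8, 84.7 and 108 CPM, and it was 201, 133, 207 and 218 CPM in Pdgfra-Cre:LmnaF/F libraries 1 to 4. The lowest Pdgfra-Cre:LmnaF/F library was thus above the highest WT library, and the lowest value of all was that of WT replicate 2, the library with the fewest counts. This gave a log2 fold change of 1.12 ± 0.26 (SE), a 2.17-fold difference with a 95% interval of 1.48 to 3.18 (adjusted p = 0.0856, edgeR quasi-likelihood test). The adjusted p was 0.00338 with DESeq2, 0.00604 with edgeR when no gene was filtered out, and 0.0031 with DESeq2 and 1 RUVr factor. Leaving out any 1 library gave log2 fold changes between 0.92 and 1.25, with adjusted p-values between 0.0878 and 0.211 (edgeR). Thinning every library to the depth of the smallest gave a log2 fold change of 1.09 (adjusted p = 0.0839, edgeR). Leaving out WT replicates 2 and 3 together gave 0.81 (adjusted p = 0.500, edgeR).

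Frzb (ENSMUSG00000027004.3, chromosome 2, 80411970 to 80447625, minus strand, mm10), also known as Sfrp3, is a secreted Frizzled-like protein that binds Wnt ligands. Its level was 198, 173, 209 and 196 CPM in WT and 219, 268, 239 and 268 CPM in Pdgfra-Cre:LmnaF/F replicates 1 to 4. The 2 groups lay close together without overlap, with 209 CPM as the highest WT value and 219 CPM as the lowest of the other genotype. Its log2 fold change was 0.36 ± 0.18 (SE), and its 95% interval of -0.02 to 0.73 included 0 (adjusted p = 0.457, edgeR quasi-likelihood test). Without any 1 library it was between 0.30 and 0.41.

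Sfrp1, a secreted Frizzled-related protein with the highest mean level per length of the 10 genes in WT cells, had 389, 314, 278 and 445 CPM in WT and 295, 279, 269 and 339 CPM in Pdgfra-Cre:LmnaF/F replicates 1 to 4. The groups overlapped between 278 and 339 CPM. Between genotypes the log2 fold change was -0.27 ± 0.20 (SE), with a 95% interval of -0.70 to 0.16 (adjusted p = 0.665, edgeR quasi-likelihood test). Without WT replicate 4 it was -0.15, and without WT replicates 2 and 3 it was -0.51 (adjusted p = 0.704, edgeR).

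Sfrp2, a related antagonist, varied more among libraries of 1 genotype than between the genotypes. Its level was 23.7, 43.3, 6.23 and 29.1 CPM in WT and 34.7, 11.5, 54.0 and 15.1 CPM in Pdgfra-Cre:LmnaF/F replicates 1 to 4. The log2 fold change of 0.19 ± 0.53 (SE; adjusted p = 0.937, edgeR quasi-likelihood test) had a 95% interval of -0.94 to 1.33. Its sign turned without WT replicate 3 (-0.14) and without Pdgfra-Cre:LmnaF/F replicate 3 (-0.30).

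The remaining antagonists had few counts, and each was at or under a floor of 3 counts in at least 2 of the 8 libraries. Sfrp4, an Sfrp of connective tissue, had 13, 3, 49 and 11 counts in WT and 1, 0, 0 and 32 counts in Pdgfra-Cre:LmnaF/F replicates 1 to 4. WT replicate 3 held most of the WT counts, and replicate 4 most of the others. Wif1, which binds Wnt ligands directly, had 11, 4, 0 and 17 counts in WT and 89, 8, 30 and 0 counts in Pdgfra-Cre:LmnaF/F replicates. Its highest and its lowest library in the Pdgfra-Cre:LmnaF/F group thus spanned the whole WT range. Dkk2, a coreceptor antagonist, had 6, 0, 0 and 6 counts in WT and 0, 0, 12 and 0 counts in Pdgfra-Cre:LmnaF/F replicates, and was not tested. The log2 fold changes of Sfrp4 (-2.04 ± 1.59, SE) and Wif1 (1.52 ± 1.51, SE) were close to their own errors in size (adjusted p = 0.690 and 0.778, edgeR quasi-likelihood test). Single libraries set both values. That of Sfrp4 was -5.86 without Pdgfra-Cre:LmnaF/F replicate 4, where the other libraries of that genotype held 1 count or none, and -0.86 without WT replicate 3. That of Wif1 was 0.27 without Pdgfra-Cre:LmnaF/F replicate 1, and 0.08 with limma-voom.

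The ligand Wnt5a, best known for signalling without beta-catenin, had 39.5, 27.7, 32.3 and 52.1 CPM in WT and 27.1, 17.6, 45.1 and 17.7 CPM in Pdgfra-Cre:LmnaF/F replicates 1 to 4. Of the Pdgfra-Cre:LmnaF/F libraries, replicates 1, 2 and 4 lay below every WT library, and replicate 3 lay within the WT range. For Wnt5a the log2 fold change was -0.50 ± 0.34 (SE), with a 95% interval of -1.22 to 0.21 (adjusted p = 0.611, edgeR quasi-likelihood test). It was -0.87 without Pdgfra-Cre:LmnaF/F replicate 3 (adjusted p = 0.365, edgeR), -0.31 without WT replicate 4, and -0.77 with limma-voom (adjusted p = 0.263).

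Axin2, which beta-catenin induces and which is widely read as a marker of canonical signalling, had 7.47, 6.04, 2.56 and 11.4 CPM in WT and 9.10, 8.97, 11.9 and 8.42 CPM in Pdgfra-Cre:LmnaF/F replicates 1 to 4. The values of the Pdgfra-Cre:LmnaF/F libraries lay close together, and the WT range reached on both sides of most of them. The log2 fold change was 0.47 ± 0.56 (SE), and the 95% interval of -0.72 to 1.66 left room for a difference in either direction (adjusted p = 0.826, edgeR quasi-likelihood test). Without WT replicate 3, which had the lowest value, it was 0.18, without WT replicate 4, which had the highest WT value, it was 0.84, and without WT replicates 2 and 3 it was 0.01.

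Lef1, a DNA-binding partner of beta-catenin and itself a target, had 0, 0, 0 and 13 counts in WT and 16, 21, 0 and 24 counts in Pdgfra-Cre:LmnaF/F replicates 1 to 4. It was thus at 0 in 3 WT libraries and in 1 of the others, and the groups overlapped. The log2 fold change was 1.91 ± 1.75 (SE; adjusted p = 0.752, edgeR quasi-likelihood test), a value that depends on how counts of 0 are treated. Without WT replicate 4, the 1 WT library with any counts, it was 6.64 (adjusted p = 0.551, edgeR), which is no estimate of size because every WT library is then at 0.

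**Figure D2:**
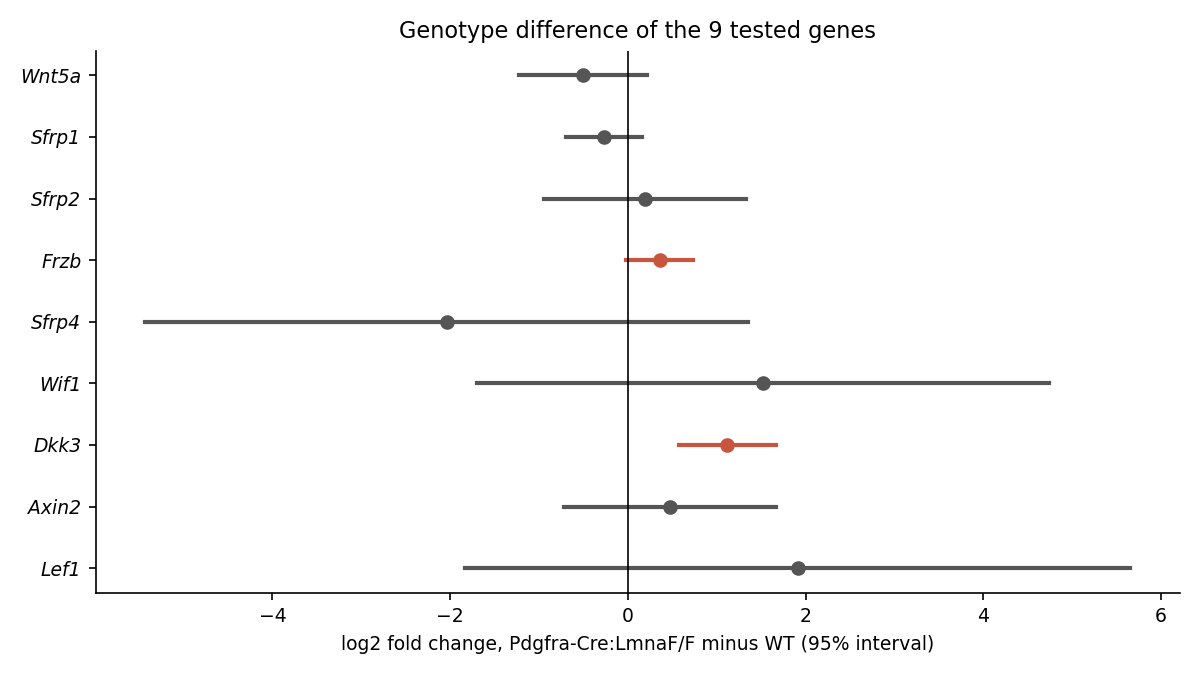
Points give the log2 fold change, Pdgfra-Cre:LmnaF/F minus WT, of the 9 tested genes, with lines for the 95% interval and a vertical line at 0. The 2 genes in red are those whose groups did not overlap (Dkk3 at 1.12 and Frzb at 0.36), and the Dkk3 interval alone does not reach 0.

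Levels of different genes were compared as RPKM, the TMM-scaled CPM divided by the exon length of the gene in kilobases. In WT cells the order began with Sfrp1 (81.6 ± 17.1 RPKM, SD, n = 4), Frzb (59.9 ± 4.64) and Dkk3 (25.9 ± 8.38). Sfrp2 (11.9 ± 7.11), Wnt5a (4.84 ± 1.36) and Axin2 (1.25 ± 0.66) came next. Sfrp4, Wif1, Dkk2 and Lef1 each had a mean under 1 RPKM in WT. Of the neighbours in this order, Frzb and Dkk3, and Wnt5a and Axin2, had ranges over the 4 WT libraries that did not overlap, and the other neighbours overlapped.

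In Pdgfra-Cre:LmnaF/F cells the order began with Frzb (76.8 ± 7.31 RPKM, SD, n = 4), Sfrp1 (67.6 ± 7.10) and Dkk3 (56.6 ± 11.4). The ranges of Frzb and Sfrp1, and of Sfrp1 and Dkk3, overlapped, while those of Dkk3 and Sfrp2 (13.4 ± 9.12) and of Wnt5a (3.44 ± 1.65) and Axin2 (1.74 ± 0.28) did not. With the longest transcript as length in place of all exons, Wnt5a (lowest library 2.51 RPKM) and Axin2 (highest library 2.78 RPKM) overlapped as well. Frzb was above Dkk3 in each of the 8 libraries. Among the other Wnt ligands, Wnt11 had a higher mean level per length than Wnt5a in both genotypes, with 9.83 RPKM in WT and 17.1 RPKM in Pdgfra-Cre:LmnaF/F, and so did Wnt9a, with 7.15 and 7.69 RPKM.

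**Figure D3:**
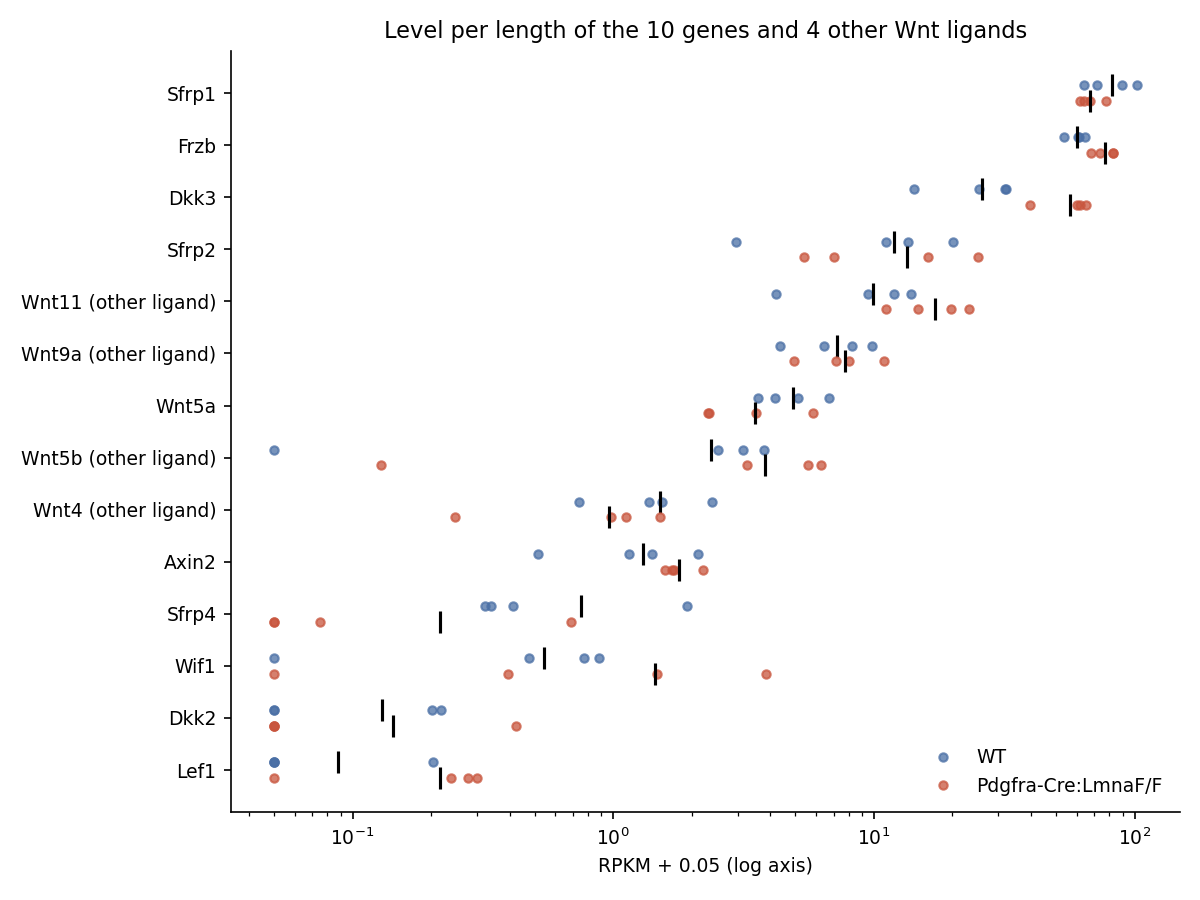
Each row is a gene and each point a library, on a log axis of RPKM + 0.05 (the offset places values of 0), in blue for WT and red for Pdgfra-Cre:LmnaF/F, with a black tick for the mean of 4 libraries. Sfrp1, Frzb and Dkk3 form the upper end in both genotypes, and the red Dkk3 points, 39.7 to 65.0 RPKM, lie above the blue ones, 14.2 to 32.2 RPKM.

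Ratios of counts within a library do not depend on how libraries are scaled to each other, and are given as a description. The ratio of Dkk3 to Sfrp1 was 0.275, 0.152, 0.304 and 0.243 in WT and 0.682, 0.479, 0.769 and 0.643 in Pdgfra-Cre:LmnaF/F replicates 1 to 4, with no overlap. That of Frzb to Sfrp1 ranged from 0.441 to 0.751 in WT and from 0.744 to 0.961 in the other genotype, an overlap of the highest WT with the lowest Pdgfra-Cre:LmnaF/F library. Dkk3 to Frzb ranged from 0.276 to 0.551 and from 0.498 to 0.917, which also overlapped.

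A sum was taken over 9 secreted antagonists, the 7 above with Sfrp5 and Dkk1. It leaves out Igfbp4, also among the antagonists listed by role below, with means of 361 RPKM in WT and 290 RPKM in Pdgfra-Cre:LmnaF/F. Those means exceed the mean sums of the 9, 181 and 216 RPKM, so the shares hold for the 9 only. In the summed RPKM of the 9, Sfrp1, Frzb and Dkk3 together made up 92.5% ± 4.33 in WT and 93.1% ± 4.48 in Pdgfra-Cre:LmnaF/F libraries (SD, n = 4). Within this nearly equal total share, Dkk3 held 14.1% ± 3.56 in WT and 26.0% ± 3.53 in Pdgfra-Cre:LmnaF/F, Sfrp1 held 44.8% ± 3.46 and 31.4% ± 2.72, and Frzb 33.6% ± 5.11 and 35.8% ± 5.16. The ranges of the Dkk3 share did not overlap (8.83% to 16.4% against 20.7% to 27.9%), and neither did those of the Sfrp1 share (40.2% to 48.5% against 27.5% to 33.3%). Shares of 1 total are not independent, so a lower Sfrp1 share is not a second difference beside a higher Dkk3 share, and the CPM of Sfrp1 itself overlapped. The 9 summed antagonists were 6.12 ± 1.48 times the summed RPKM of the listed Wnt ligands in WT and 5.87 ± 0.85 times in Pdgfra-Cre:LmnaF/F, and these ranges overlapped. The size of this ratio depends on the choice of the 9 and would be larger with Igfbp4.

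**Figure D4:**
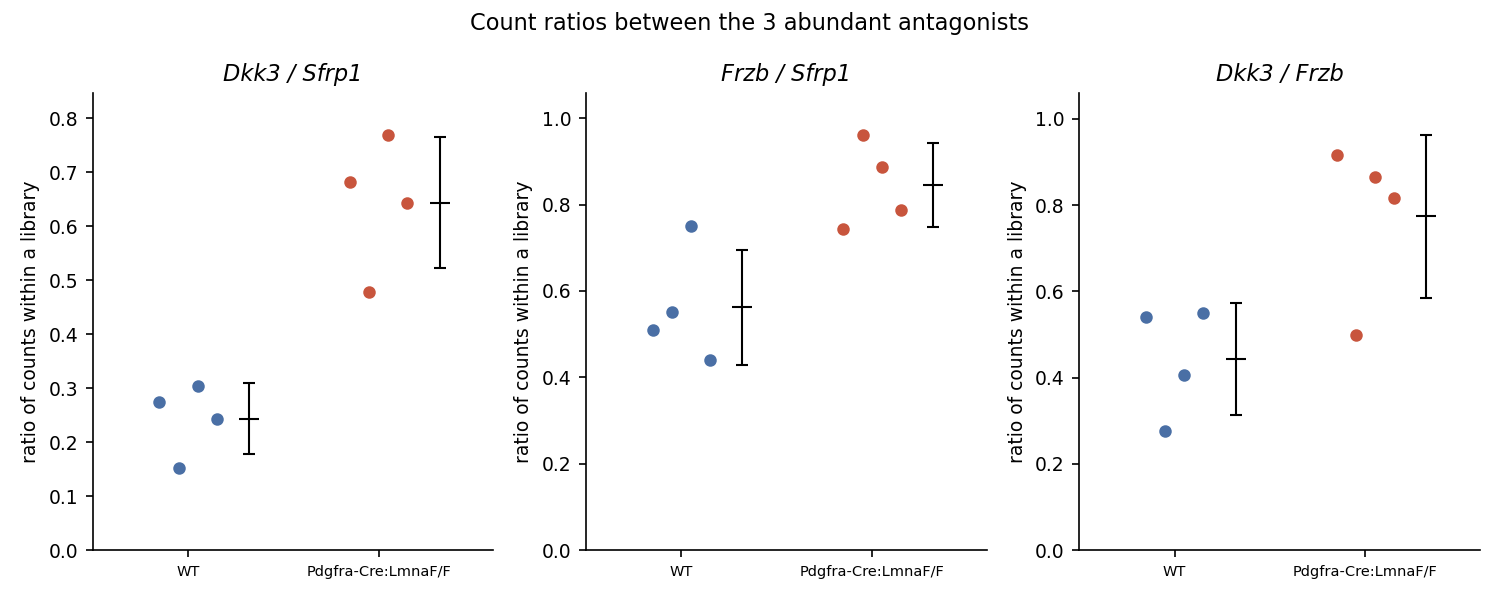
The 3 panels plot the ratio of counts of Dkk3 to Sfrp1, Frzb to Sfrp1 and Dkk3 to Frzb within each library, on linear axes from 0, with 4 points per genotype and a black bar for the mean ± SD. The red points of the Dkk3 to Sfrp1 panel, 0.479 to 0.769, all lie above the blue ones, 0.152 to 0.304, and the other 2 panels show a small overlap.

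The rest of the pathway was read from 8 lists by role, holding 133 genes, of which 129 were listed and 108 were tested. None of the 108 passed the adjusted threshold in the edgeR test. At an unadjusted p under 0.05 there were 15 (13.9%, 6 higher and 9 lower, against 11.9% of all tested genes), and the groups did not overlap for 12 (11.1%, 6 in each direction, against 8.03%, of which 4.06% higher and 3.97% lower). Their median log2 fold change was 0.02 and that of all tested genes 0.02, both rounded to 2 decimals, and 55 had a positive and 53 a negative value. DESeq2, which gave no adjusted p for 11 of the 108, called Dkk3, Fgf18 and Aes, 3 genes, against 2.32% of all tested genes.

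Genes with both an unadjusted p under 0.05 and groups that did not overlap, 6.14% of all tested genes, are named next. Among 8 tested ligands the 1 such gene was Wnt10b, a canonical ligand, at 10.4 ± 4.63 CPM in WT and 4.17 ± 1.31 CPM in Pdgfra-Cre:LmnaF/F (SD, n = 4). Its log2 fold change was -1.33 ± 0.59 (SE; adjusted p = 0.393, edgeR). Wnt11, named like Wnt9a after its values were seen because it exceeded Wnt5a, had 49.0, 57.4, 17.3 and 39.1 CPM in WT and 60.9, 46.0, 81.4 and 95.2 CPM in Pdgfra-Cre:LmnaF/F replicates 1 to 4, with overlap. Its log2 fold change was 0.81 ± 0.33 (SE; adjusted p = 0.353, edgeR), and DESeq2 with 1 RUVr factor called it (adjusted p = 0.0100). The ratio of Wnt5a to Wnt11 counts was 1.12 ± 0.61 in WT and 0.392 ± 0.154 in Pdgfra-Cre:LmnaF/F, and the ranges overlapped (0.482 to 1.87 and 0.186 to 0.554).

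Among 17 tested receptors and coreceptors, Fzd5 and Fzd6, both Frizzled receptors, met the 2 conditions. Fzd5 had 9.56 to 17.6 CPM in WT libraries and 25.8 to 26.6 CPM in Pdgfra-Cre:LmnaF/F libraries (log2 fold change 0.97 ± 0.31, SE; adjusted p = 0.209, edgeR). Fzd6 had 4.24 ± 1.52 CPM in WT and 10.4 ± 3.28 CPM in Pdgfra-Cre:LmnaF/F (log2 fold change 1.32 ± 0.58, SE; adjusted p = 0.391, edgeR). Ror2, a receptor for Wnt5a that was named after its values were seen, had 37.9 ± 9.89 CPM in WT and 19.2 ± 5.80 CPM in Pdgfra-Cre:LmnaF/F, with overlapping groups (log2 fold change -0.98 ± 0.31, SE; adjusted p = 0.204, edgeR). The coreceptor Lrp6 had 174 ± 41.4 and 190 ± 20.2 CPM (log2 fold change 0.13, adjusted p = 0.877, edgeR), a value whose sign turned to -0.035 without WT replicate 3. Lrp5, the other coreceptor and named after its values were seen, had 213 ± 28.6 CPM in WT and 161 ± 23.9 CPM in Pdgfra-Cre:LmnaF/F. Its groups overlapped (log2 fold change -0.41, adjusted p = 0.421, edgeR).

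In the cytoplasmic relay, Dact2, which binds Dishevelled, was the 1 gene of 25 tested that met both conditions, at 36.4 ± 6.65 CPM in WT and 20.3 ± 2.69 CPM in Pdgfra-Cre:LmnaF/F (log2 fold change -0.84 ± 0.26, SE; adjusted p = 0.206, edgeR). Ctnnb1, the gene for beta-catenin, had 499 ± 78.8 and 512 ± 43.6 CPM (log2 fold change 0.03, 95% interval -0.37 to 0.44; adjusted p = 0.967, edgeR), a value whose sign turned when 1 library was left out. The nuclear list had 15 tested genes, among them Aes (now Tle5), a gene of the Groucho family. Aes had 496, 571, 389 and 558 CPM in WT and 382, 250, 263 and 319 CPM in Pdgfra-Cre:LmnaF/F replicates 1 to 4. The lowest WT value, 389 CPM, was just above the highest of the other genotype, 382 CPM. Its log2 fold change was -0.73 ± 0.21 (SE; adjusted p = 0.170, edgeR; 0.0174 with DESeq2). Tcf7l2, the nuclear partner related to Lef1, had 22.3 ± 10.5 and 21.3 ± 4.31 CPM (log2 fold change -0.07, 95% interval -0.93 to 0.80; adjusted p = 0.970, edgeR), with a sign that turned under several alternatives.

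Of the 17 tested targets of beta-catenin, including Axin2 and Lef1, 12 had a positive and 5 a negative log2 fold change, with a median of 0.26, and 0 were called by edgeR. At an unadjusted p under 0.05 there were 2 (11.8%, against 11.9% of all tested genes), both lower. The groups did not overlap for 2 as well (11.8%, against 8.03%), Fgf18 as lower and the receptor gene Lgr5, named after its values were seen, as higher. Lgr5 had 0 to 0.747 CPM in WT and 1.76 to 4.03 CPM in Pdgfra-Cre:LmnaF/F libraries (log2 fold change 2.87 ± 1.36, SE; adjusted p = 0.427, edgeR). Fgf18, a fibroblast growth factor, met both conditions with 8.97, 12.1, 14.1 and 10.7 CPM in WT and 4.14, 2.92, 2.99 and 1.42 CPM in Pdgfra-Cre:LmnaF/F replicates 1 to 4. Its log2 fold change was -1.99 ± 0.60 (SE; adjusted p = 0.193, edgeR; 0.0186 with DESeq2). Ccnd1, the gene for cyclin D1 and named after its values were seen, was the other, and its WT mean rested on replicate 2, with 188 CPM against 12.5 to 17.1 CPM in the other WT libraries. In the planar polarity and calcium list of 20 tested genes, 6 had a positive and 14 a negative value, with a median of -0.19. Rhoa, a small GTPase of that branch, met both conditions (415 ± 36.3 and 294 ± 43.9 CPM, log2 fold change -0.50 ± 0.19, SE; adjusted p = 0.309, edgeR). The list of ligand release and R-spondins had 4 tested genes, of which 0 had an unadjusted p under 0.05.

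**Figure D5:**
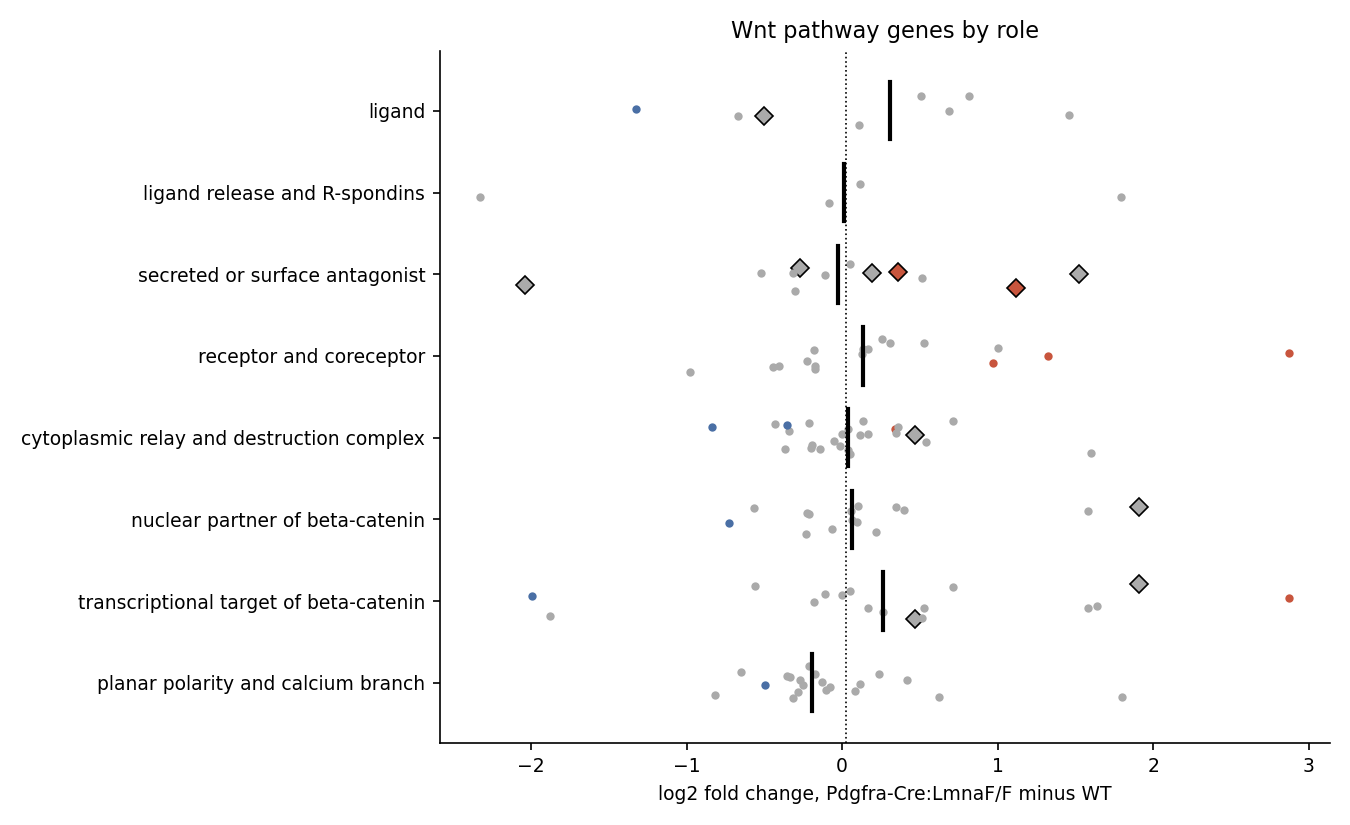
Each point is the log2 fold change, Pdgfra-Cre:LmnaF/F minus WT, of 1 tested gene in its list, diamonds being the 9 genes described first, red and blue marking groups that did not overlap (higher and lower), and grey those that did (genes in 2 lists are drawn in both). Thick lines are list medians, from -0.19 for planar polarity and calcium to 0.31 for ligands, and the dotted line is the median of all tested genes, 0.02.

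Marker lists of fibroblasts, other cell types and the dissociation response were summed in the same libraries, and none of the 10 sums had an adjusted p under 0.05. The smallest p that the exact permutation test can give is 0.0286, and the sums that reached it came to 0.143 after adjustment. The lack of a lower adjusted p therefore does not show that the sums were equal between the genotypes. The summed level of 18 genes of the dissociation response, the early genes that tissue digestion induces, was 2565 to 5910 CPM in WT and 8380 to 13651 CPM in Pdgfra-Cre:LmnaF/F libraries. That difference had the smallest p that 70 assignments allow (exact two-sided permutation test, p = 0.0286, 0.143 after adjustment over 10 marker lists), and 13 of the 18 genes did not overlap and were higher, against 4.06% of all tested genes. Of the 18, edgeR called 3 (Ier3, Btg2 and Nr4a1), all higher, against 0.407% of all tested genes. The part of this response in the Dkk3 and Frzb values was not tested. The summed endothelial markers were 557 to 769 CPM in WT and 443 to 551 CPM in the other genotype (exact permutation p = 0.0286, adjusted 0.143), with 2 of the 8 markers lower without overlap, against 3.97% of all tested genes, and none at 0 throughout. Most of this sum was Tek, at 473 CPM of 688 in WT and 313 of 477 in Pdgfra-Cre:LmnaF/F on average. Of the 8 markers 6 had negative log2 fold changes, from -1.17 for Cdh5 to -0.12 for Tie1, and Vwf (0.40) and Cldn5 (0.27) had positive ones. None was called by edgeR, and the 2 without overlap were Tek and Cdh5 (adjusted p = 0.208 and 0.215). The part of these markers was not tested either. The 8 myocyte markers, of which 7 were tested and 0 had groups without overlap, summed to 3286 CPM in Pdgfra-Cre:LmnaF/F replicate 4 against 220 to 414 CPM in replicates 1 to 3, and without that library the Dkk3 and Frzb log2 fold changes were 1.04 and 0.32.

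Promoter sequence from RefSeq (GRCm38.p6, 250 bases before to 50 after a start) was at hand for 6 of the 10 genes, as 9 promoters. It was searched on both strands for CTTTGA, the core of the site that Lef1 and TCF factors bind, a motif that 16.0% of 32851 mouse promoters of this length hold. It occurred in 2 of the 9 promoters, those of Frzb and of 1 of the Lef1 starts, which lies inside the gene. The windows below, 5′ to 3′ on the strand of the gene, show the match in capitals, read as TCAAAG because it lies on the opposite strand.
Frzb, chr2:80447474-80447503, minus strand: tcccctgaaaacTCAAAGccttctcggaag
Lef1, chr3:131156102-131156131, plus strand: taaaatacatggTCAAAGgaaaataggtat
Lef1, chr3:131156162-131156191, plus strand: cattgtctgttcTCAAAGtcaggtcttgca
The matches began 95 bases before the start for Frzb and 180 and 120 bases before it for Lef1. The GENCODE gene model of Frzb begins upstream of this RefSeq start, so that match lies inside the GENCODE gene. A match describes the letters only. The promoters of Axin2, Dkk2, Sfrp2 and Wif1 did not hold the motif in these windows.

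Over the 8 libraries, the tested genes whose log2 CPM ran most like that of Dkk3 were Tarbp2 (Pearson r = 0.993), Parl (0.971) and Tbrg1 (0.970). For Frzb they were Capza2 (0.989), Alms1 (0.978) and Rpl5 (0.975). These were the highest of 13035 genes compared, over libraries that include both genotypes, and are a description.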

How the data were processed

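RNA of sorted PDGFRA+ cells was measured in 8 strand-specific libraries depleted of ribosomal RNA, 4 per genotype, from RNA with a RIN above 8 and read as 150 bp pairs. Reads had been placed on mm10 by HISAT2 and summed per GENCODE gene by featureCounts, and the authors deposited the resulting raw count of each gene. The RUV normalization named in the methods of the study is not in the deposited counts. Each of the 8 tables has 18957 genes, none with a total under 4 counts, including 24 symbols turned into dates, which were left as listed. Groups were taken from the sample labels. The 10 genes and all lists were chosen with earlier results of these data known, and the gene lists were written from general knowledge.

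The main test was that of edgeR 4.0.16 under R 4.3.3 (TMM factors, filterByExpr, quasi-likelihood test with genotype as the only term, Benjamini-Hochberg adjustment over 13036 genes, threshold 0.05). Other steps used DESeq2 1.42.0, limma 3.58.1 and Python 3.11.15. RPKM values used exon lengths of GENCODE M21, which 18918 symbols matched. For marker sums an exact two-sided permutation test over 70 assignments was run. Named were the 10 genes, Lmna, Ctnnb1, Tcf7l2 and Lrp6, genes of the lists with an adjusted p under 0.05, or an unadjusted p under 0.05 without overlap, and the 3 genes most correlated with Dkk3 and with Frzb. Alternatives covered other tests (DESeq2, and limma-voom with quality weights), other scaling (upper-quartile or RLE factors), other filters (none, or 10 counts or more in every library), 1 RUVr factor in edgeR or DESeq2, a replicate block, each library left out in turn, and the longest transcript as RPKM length. Thinning to 2080555 counts, leaving out WT replicates 2 and 3 together and other scalings of the marker sums were added after seeing the data. The fits were tested on simulated data, in which false calls exceeded the threshold rate with DESeq2. Those counts were drawn with the dispersions that edgeR estimated here, so the methods were not compared on even terms. The simulation does not show that edgeR keeps its rate in these data. Intervals and the floor of 3 counts cover counting error or library spread only. Sfrp5 and the other genes without enough counts were not tested.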

Additional observations from a re-analysis of the deposited data

Results flagged for a closer look

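Among 66 groups of 4 libraries in which a value standing apart was looked for (by Dixon's test of the gap to the nearest library), 7 stood apart. The test gives about 1 in 20 by chance for normally spread values, a rate that does not hold for genes with libraries at or near 0, which Sfrp4, Dkk2 and Lef1 are. Sfrp4 was at 7.83 CPM in WT replicate 3, with the nearest WT library at 1.51 CPM, and at 2.67 CPM in Pdgfra-Cre:LmnaF/F replicate 4, with the nearest at 0.103 CPM. Dkk2 was at 1.38 CPM in Pdgfra-Cre:LmnaF/F replicate 3 and at 0 in the others of that genotype. Lef1 was at 1.35 CPM in WT replicate 4 and at 0 in the other WT libraries. These 3 genes have at most 49 counts in any library. The myocyte marker sum was 3286 CPM in Pdgfra-Cre:LmnaF/F replicate 4 (nearest 414 CPM), and the hematopoietic marker sum was 393 CPM in the same library (nearest 91.8 CPM). The adipocyte marker sum was 206 CPM in WT replicate 1 (nearest 131 CPM).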

How the results depend on the processing

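The number of genes called across all tested genes was 53 in edgeR, 303 with DESeq2, 126 with limma-voom, 274 with no filter, 453 with DESeq2 and 1 RUVr factor, 18 with WT replicates 2 and 3 both left out, and 13 to 76 when 1 library was left out (24 without WT replicate 1 or WT replicate 2, 13 without WT replicate 4, and 26 and 17 without Pdgfra-Cre:LmnaF/F replicates 2 and 3). Of the 10 genes, 1 (Dkk3) was called with DESeq2, with no filter, with DESeq2 and 1 RUVr factor and with the replicate block, and 0 in the other fits, including every fit without 1 library. Of the genes in the 8 lists, 3 were called with DESeq2, 2 with no filter (Ccnd1 and Dkk3), 4 with DESeq2 and 1 RUVr factor (Fgf18, Wnt11, Dkk3 and Aes) and 1 with the replicate block. The cause of these differences was not tested.

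The libraries of the 2 genotypes share only a number. The correlation of their deviations from the group means was between -0.03 and 0.04 for equal numbers, so the numbers were not taken to pair the libraries. With the replicate block, 36 genes were called, Dkk3 among them (adjusted p = 0.0487, edgeR quasi-likelihood test). The adjusted p of Dkk3 ranged from 0.0031 to 0.500 over all alternatives.

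Signs turned for 4 genes that were not called. The log2 fold change of Sfrp2 was -0.027 with limma-voom and -0.30 to 0.54 without 1 library, that of Ctnnb1 -0.056 to 0.12 without 1 library, and that of Lrp6 -0.035 to 0.21 without 1 library and -0.10 without WT replicates 2 and 3. That of Tcf7l2 was 0.12 with 1 RUVr factor in edgeR or DESeq2, 0.057 with the replicate block, and -0.38 to 0.12 without 1 library. With the longest transcript as length, the Pdgfra-Cre:LmnaF/F level was 2.25 RPKM for Axin2 and 0.40 RPKM for Lef1, and the other levels moved by less than their SD. The ranges of Wnt5a and Axin2 in that genotype then overlapped. Sfrp4, Wif1 and Lef1 gave no value where at least 10 counts in every library were required or libraries were thinned, and Dkk2 gave one only with no filter. At these depths a difference in Sfrp4, Wif1, Dkk2 or Lef1 was not measurable with useful precision.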
